A study of Homo sapiens with 24 samples.

Results

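The 8 genes described here encode the enzymes that break tryptophan down through kynurenine: IDO1 and TDO2 at the entry, AFMID after them, KYNU, KMO and AADAT at the branch point, and HAAO and QPRT towards NAD. They were taken by name from a table of 26485 genes. RNA was sequenced from SH-SY5Y, an established human neuroblastoma cell line, in 24 libraries that form 8 groups of 3. At 4 h the groups are untreated cells and cells given copper chloride. At 24 h they are untreated cells and cells given Dextran-Catechin (DC), TEPA, interferon gamma (IFN), DC with IFN, or TEPA with IFN. DC and TEPA, a polyamine, are the copper chelators of the study, which set out to examine how copper inside the tumour cell is regulated. All groups are the same single line, no dose is in the labels, and nothing in them says that the 3 libraries of a group came from separate cultures. The p-values then measure only the spread between these libraries, which may be technical.

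Most tryptophan that is not built into protein is broken down by opening its indole ring. IDO1 does this in many tissues once interferon gamma has acted through the kinases JAK1 and JAK2 and, further on, the transcription factor IRF1, while TDO2 does it chiefly in the liver. AFMID turns the product, N-formylkynurenine, into kynurenine, which tumours are known to release and which restrains T cells. From kynurenine, AADAT makes kynurenic acid and KMO makes 3-hydroxykynurenine. KYNU cleaves kynurenine or 3-hydroxykynurenine to anthranilic acids, after which HAAO and QPRT lead to quinolinic acid and on to NAD.

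IDO1 stood at 0 to 5 counts in each library without IFN and at 2208 to 6940 counts in each library with it. AADAT, AFMID and QPRT were present in all 24 libraries at 6.82 to 48.0 CPM (normalised counts, a rate relative to the scaled library total). KMO had 4 to 19 counts a library. TDO2, KYNU and HAAO held 4, 5 and 1 counts over all 24 libraries together. Of the 8 genes, 5 passed the filter on low counts and were among the 14654 genes tested. IDO1, at 0 to 5 counts without IFN, passed it only through the libraries with IFN. Over the 11 comparisons made, the calls among them were IDO1 higher with IFN, in each of its 3 IFN comparisons, and AADAT lower with copper.

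Libraries held 24569980 to 35372442 counts. Libraries of a group were not alike in how they represented GC-rich transcripts. A library's GC difference, taken as the median log2 level of genes with over 60% GC minus that of genes with under 40%, each relative to its mean over the libraries, ran from -1.35 to 1.37, with both ends in the 4 h control. It was -0.98 to -0.36 in the 24 h control and -0.12 to 0.88 with IFN, groups that do not overlap. Values with this trend removed stand beside the results they touch. Of the 9 sympathoadrenal markers checked, 8 were expressed throughout (summed level 1930 to 2410 CPM), and TH, tyrosine hydroxylase, had 5 counts in all. Of 8 leukocyte markers CD3E was at 0, PTPRC stayed at or under 0.698 CPM, and 4 hepatocyte markers summed to at most 0.144 CPM. The leukocyte sum was 0.577 to 3.56 CPM in the 24 h groups without IFN and 5.0 to 10.9 CPM with it, mostly CD68, a lysosomal protein, and its part in the IFN results was not tested. Collagen and matrix genes of the fibroblast list (COL3A1, DCN and LUM) were expressed in every library, at a summed level of 404 to 614 CPM for the whole list, with the endothelial PECAM1 and CDH5 at 5 and 4 counts. SLC30A1, a zinc exporter gene that responds to metal, was higher with copper (log2 fold change 2.56, adjusted p = 1.28e-08) and lower with TEPA (-1.50, adjusted p = 0.000207). Fitted on the libraries of that comparison alone, TEPA gave SLC30A1 -1.49 and no call (adjusted p = 0.0866). IRF1 was higher with IFN (7.32, adjusted p = 4.98e-13).

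Promoters were searched for the 2 DNA elements through which interferon acts: the GAS element, spelled TTCNNNGAA, and the ISRE of the IRF family, spelled GAAA, any 2 bases, GAAA, on both strands, in RefSeq windows (GRCh38.p14) from 250 bases before to 50 after a gene's start. Windows were found for 7 of the 8 members, all but IDO1, 10 windows in all. GAS letters were in 7.66% of all 35116 windows, ISRE letters in 3.57% and both in 0.439%. Of these 7 members 1 had a GAS match, KYNU, and 0 had an ISRE match. The stretches of 150 bases before the start are shown for KYNU and for 2 genes that rose with IFN, WARS (in RefSeq WARS1, the second of 2 windows) and IRF1, because they hold matches. The first WARS window and those of MAOB, NAMPT, IL4I1 and NADSYN1, which also rose with IFN, and of MAOA, which fell, held neither set of letters. Capitals mark GAS or ISRE letters.

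KYNU: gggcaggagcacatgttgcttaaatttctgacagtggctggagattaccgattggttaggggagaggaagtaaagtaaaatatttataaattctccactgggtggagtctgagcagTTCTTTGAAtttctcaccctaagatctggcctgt

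WARS: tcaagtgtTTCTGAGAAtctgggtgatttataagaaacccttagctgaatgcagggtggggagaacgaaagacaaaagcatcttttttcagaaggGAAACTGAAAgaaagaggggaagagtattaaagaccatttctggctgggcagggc

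IRF1: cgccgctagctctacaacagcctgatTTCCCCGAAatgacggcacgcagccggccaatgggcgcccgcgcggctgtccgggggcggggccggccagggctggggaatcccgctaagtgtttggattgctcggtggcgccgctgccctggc

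The KYNU stretch is chr2:142877514-142877663 on the plus strand, with its GAS letters 34 bases before the start and a further match 5 bases after it. The WARS stretch is chr14:100375348-100375497 on the minus strand, with GAS letters 142 bases and ISRE letters 55 bases before the start. The IRF1 stretch is chr5:132490774-132490923 on the minus strand, with GAS letters 124 bases before the start. KYNU had 0 counts in the 3 libraries with IFN alone, while WARS and IRF1 rose there. A match is a run of letters and not a measured binding site.

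**Figure D1:**
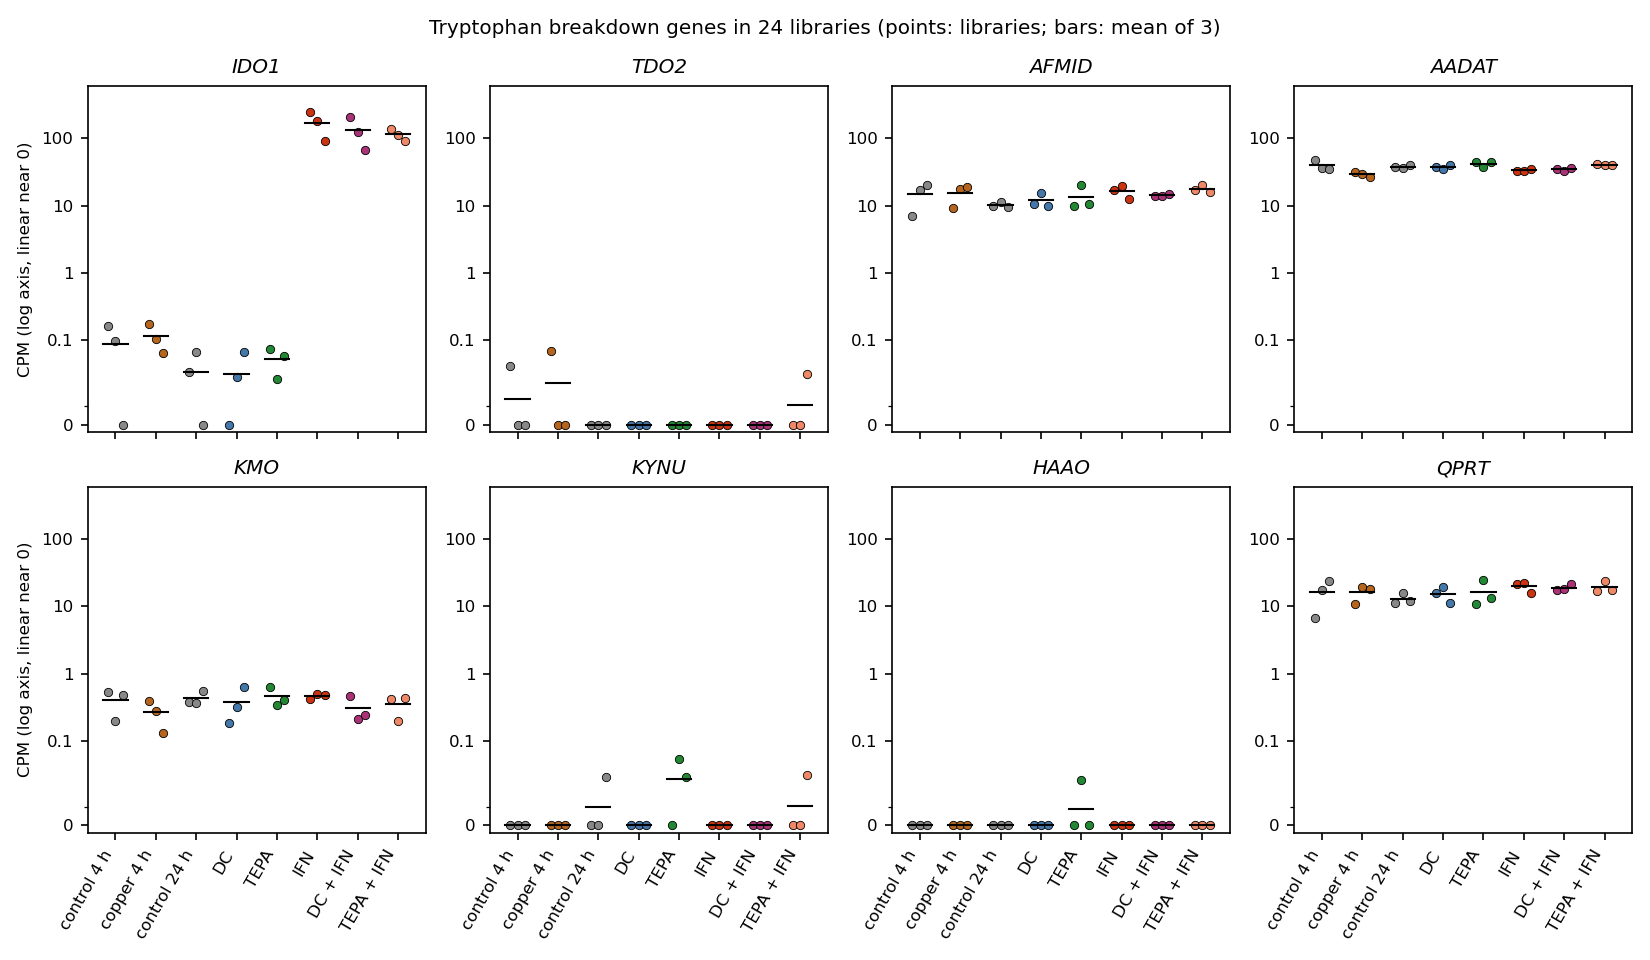
Level of each of the 8 genes in each library (CPM, log axis that is linear near 0), by group, with points for libraries and bars for the mean of 3. IDO1 is at 67.6 CPM or above in all 9 libraries with IFN and at or under 0.177 CPM in the other 15, AFMID, AADAT and QPRT lie between 6.82 and 48.0 CPM, and TDO2, KYNU and HAAO lie at or near 0.

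IDO1 (chromosome 8, 39902275 to 39928444, plus strand, GRCh38) was the only one of the 5 tested members called with IFN, where 18.8% of all tested genes were called, 10% as higher. It passed the count filter only through the libraries with IFN, so its p-values there are no support beyond its counts. Its counts were 1, 2 and 0 in the 24 h control and 6940, 4961 and 2840 with IFN. With DC they were 0, 1 and 2, and with DC and IFN 5013, 3585 and 2208. With TEPA they were 2, 1 and 2, and with TEPA and IFN 4012, 3366 and 2937. Every library with IFN lay above every library without it. At 4 h the counts were 4, 3 and 0 in the control and 5, 3 and 2 with copper, which overlap.

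As a level, IDO1 stood at 170 ± 76.6 CPM (SD, n = 3) with IFN, 134 ± 71.0 with DC and IFN and 114 ± 24.4 with TEPA and IFN. Because the groups without IFN held 3 to 5 counts of IDO1 at 24 h, the change is given as a ratio with its 95% counting interval, which covers counting error only. IDO1 was 5244-fold higher with IFN than in the control (1794 to 25430), 3894-fold higher with DC and IFN than with DC (1332 to 18890), and 2252-fold higher with TEPA and IFN than with TEPA (965 to 6938). The quasi-likelihood test of edgeR gave these Benjamini-Hochberg adjusted p-values, in the same order: 3.83e-11, 6.69e-11 and 9.18e-11. Of all tested genes, 9.82% were called in the DC comparison and 14.2% in the TEPA comparison, and IDO1 was the single member called in either. The ratios rest on single counts: without the control library numbered 2 or 3 the IFN ratio was 10730 or 3312, and without the DC library numbered 3 the DC ratio was 7902. IDO1 kept its call in these 3 comparisons under every alternative for which it was tested. With so few counts on the side without IFN, the kept calls and the adjusted p-values add no support beyond the counts.

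The chelators were compared within IFN. With DC and IFN against IFN the log2 fold change of IDO1 was -0.34 (SE 0.34, 95% interval -1.05 to 0.36, adjusted p = 0.95). With TEPA and IFN against IFN it was -0.58 (SE 0.34, -1.29 to 0.13, adjusted p = 0.599). Both sets of libraries overlap those of IFN alone, and neither difference passed the test. Of all genes, 0.0205% were called with DC and IFN against IFN and 1.9% with TEPA and IFN against IFN. Both intervals include 0, and their lower ends, at -1.05 and -1.29, leave room for sizeable falls, so they do not show that IDO1 is alike in the 3 groups. The test of whether a chelator changed the IFN effect also gave no call for IDO1 (log2 difference -0.37, SE 2.22, for DC and -1.17, SE 1.87, for TEPA), and 0% of all genes were called in either by edgeR. Of the 5 members 0 had an unadjusted p under 0.05 there, and DESeq2 called 2 genes in the DC interaction and 0 in that of TEPA, none of them a member.

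Within each of the 3 IFN groups the library numbered 1 had the highest IDO1 level and the library numbered 3 the lowest. Taking libraries of the same number, DC and IFN stood at 0.860, 0.709 and 0.749 of the IFN level of IDO1, and TEPA and IFN at 0.576, 0.625 and 1.01. The 3 DC ratios all lie below 1, while the third TEPA ratio does not. The spread between numbers was wider than the difference between groups: IFN libraries ran from 90.3 to 243 CPM of IDO1, DC and IFN libraries from 67.6 to 209 and TEPA and IFN libraries from 91.4 to 140. With the replicate number as a block and the GC trend removed, TEPA and IFN against IFN was called for IDO1 (-0.48, adjusted p = 0.015), and with the block alone it was not (adjusted p = 0.0693). The numbers met the rule for pairing in neither comparison within IFN.

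**Figure D2:**
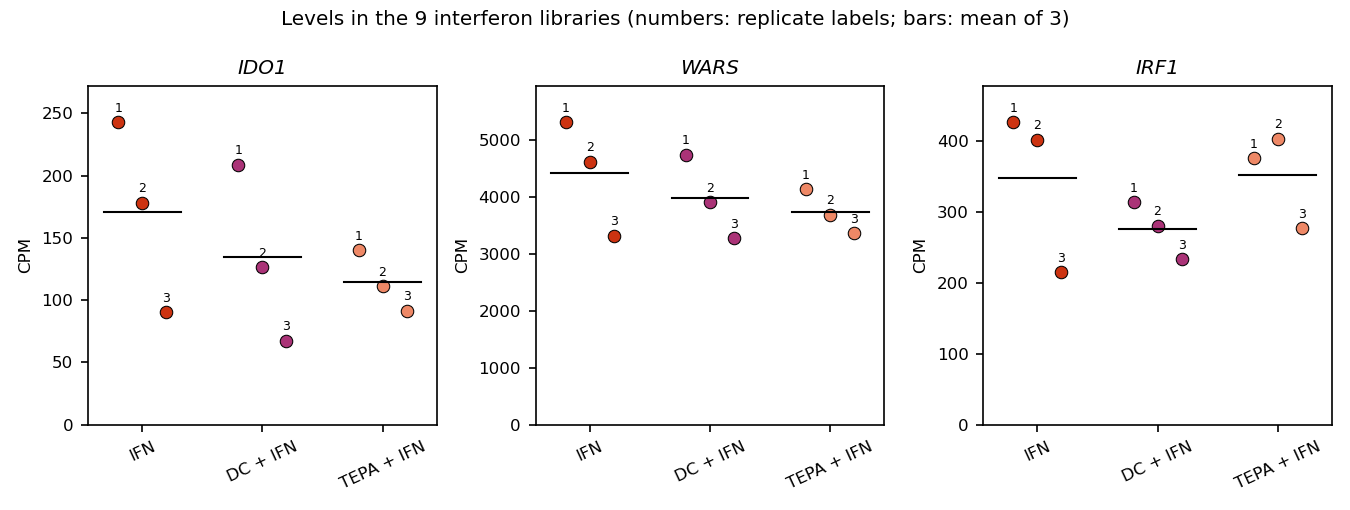
CPM of IDO1, WARS and IRF1 in the 9 libraries with IFN, numbered as in the labels, with bars for the mean of 3. For IDO1 and WARS the library numbered 1 is highest and the one numbered 3 lowest in each group.

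The inducing pathway was followed in the same libraries. Of 13 listed inducers and regulators of IDO1, 11 were tested. In each of the 3 IFN comparisons 6 were called higher and 0 lower. Of all genes, 10%, 6.16% and 7.28% were called higher there (control, DC and TEPA as the background). The list's median log2 change with IFN was 1.97 against 0.01 over all genes. The list was chosen with earlier results of these data known, so these values describe it and test nothing. IRF1 rose from 2.18 ± 0.205 to 348 ± 116 CPM with IFN. SOCS1 and SOCS3, feedback inhibitors of the JAK kinases, rose by 6.19 (SE 0.76) and 2.13 (SE 0.19), and by 4.92 and 1.40 with the GC trend removed. SOCS1 held 4 counts in the 24 h control, and its change was 7.42 without the control library numbered 2 and 5.57 without that numbered 3. No gene of this list was called by edgeR for DC, TEPA or copper, where 0, 2 and 5 had an unadjusted p under 0.05.

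IRF1 and WARS were also compared with TEPA and IFN against IFN. IRF1 gave a log2 difference of 0.02 (SE 0.23, adjusted p = 1) and WARS one of -0.24 (SE 0.15, adjusted p = 0.635), and the libraries overlap for both. IDO1 per unit of IRF1 was 0.420 to 0.570 with IFN and 0.276 to 0.373 with TEPA and IFN, ranges that do not overlap. With DC and IFN it was 0.289 to 0.665, which overlaps both. Per unit of WARS, IDO1 overlapped, at 0.0272 to 0.0458 with IFN and 0.0272 to 0.0339 with TEPA and IFN. These ratios were not tested.

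By a fixed measure of likeness, Pearson correlation of log2 CPM over the 24 libraries among tested genes that average 1 CPM or more, IFI44L, IFIT3 and DDX58 were closest to IDO1 (r = 0.998, 0.998 and 0.996). IDO1 itself splits the libraries by IFN, so these values describe that split.

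TDO2 (chromosome 4, 155854738 to 155920406, plus strand) is the other entry enzyme. It had 4 counts over the 24 libraries, in 3 of them, and 1 of those counts was in the 9 libraries with IFN. A count of 3 over those 9 libraries would be a level of 0.0114 CPM. IDO2, the paralog of IDO1, had 1 count in all libraries. Both therefore lay at the limit of detection here, and no change in either was detectable at this depth.

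AFMID (chromosome 17, 78187317 to 78207701, plus strand), the formamidase, was at 9.85, 11.5 and 9.70 CPM in the 24 h control and at 16.9, 19.4 and 12.6 CPM with IFN. All 3 IFN libraries lay above all 3 control libraries, as was so in either direction for 57.1% of all genes in that comparison. The log2 fold change of AFMID was 0.66 (SE 0.33, 95% interval -0.04 to 1.36) and was not called (adjusted p = 0.146). With DC and IFN against DC AFMID gave 0.23 (SE 0.33), and with TEPA and IFN against TEPA 0.41 (SE 0.33, adjusted p = 0.418), both with overlapping libraries. In the TEPA pair, where the numbers met the pairing rule, the block gave 0.45 and a call (adjusted p = 0.0428). The block with the GC trend removed gave 0.28 and no call (adjusted p = 0.0645).

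AFMID moved with the GC difference of the libraries. At 4 h AFMID stood at 7.14, 17.1 and 20.6 CPM in the control and at 9.29, 17.9 and 18.8 CPM with copper, so in both groups the library numbered 1, whose GC difference was the lowest of its group, stood below the others. The fold change with copper was 0.03 (SE 0.33). With the GC trend removed the IFN effect on AFMID was 0.42 (adjusted p = 0.169), and with the replicate block as well, though the numbers did not pair these libraries by the rule, it was 0.41 and called (adjusted p = 0.00956). Within groups the SD of log2 AFMID fell from 0.445 to 0.308 when the trend was removed. The part of GC in the uncorrected difference was not tested further. Between the 24 h and 4 h controls, where 9.69% of genes were called, AFMID gave -0.53 (adjusted p = 0.261), and without the 4 h control library numbered 1 it was -0.91 and called (adjusted p = 0.0226).

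AADAT (chromosome 4, 170060222 to 170091699, minus strand), which makes kynurenic acid, was the single member called with copper. It stood at 48.0, 36.7 and 35.4 CPM in the 4 h control and at 31.5, 29.9 and 26.4 CPM with copper, so every copper library lay below every control library. The means were 40.0 ± 6.91 and 29.3 ± 2.62 CPM (SD, n = 3), which is -0.45 on the log2 scale (SE 0.11, 95% interval -0.67 to -0.23, adjusted p = 0.0123). Of all tested genes 5.85% were called with copper, 3.2% as lower, and 6.83% had all copper libraries below all control libraries, so 1 call among 5 members is 1 gene in a comparison that called many.

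The AADAT difference kept its sign under every alternative, and its size ranged from -0.53 to -0.32. It was -0.44 with the replicate block (adjusted p = 0.000168), where the numbers met the pairing rule, and -0.39 with the GC trend removed (8.03e-05). Without both libraries numbered 1 at 4 h, whose GC difference was lowest, it was -0.36 (adjusted p = 0.0316, an alternative chosen after the data were seen). Leaving out 1 library at a time gave -0.53 to -0.32, each called. Fitted on the 6 libraries of the comparison alone, AADAT gave -0.40 and was not called (adjusted p = 0.535), in a fit that called 61 genes instead of 857.

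AADAT at 24 h stood at 38.1, 36.5 and 40.0 CPM in the control, at 37.3, 35.0 and 40.1 with DC and at 44.9, 37.6 and 44.2 with TEPA. These overlap. The TEPA difference was 0.15 on the log2 scale (SE 0.11, adjusted p = 0.771), in a comparison that called 1.06% of genes, and DC gave -0.03 (SE 0.11), in one that called 0.0136%. With the GC trend removed, TEPA against control was called for AADAT (0.20, adjusted p = 0.0403).

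In the IFN libraries AADAT was at 32.9, 33.2 and 35.4 CPM with IFN, 35.5, 32.5 and 36.6 with DC and IFN, and 41.3, 39.6 and 40.9 with TEPA and IFN. The TEPA and IFN libraries all lay above those of IFN alone, as was so in either direction for 22.1% of genes. The log2 difference in AADAT was 0.26 (SE 0.11, 95% interval 0.04 to 0.48, unadjusted p = 0.0223) and was not called over all genes (adjusted p = 0.288), while with the GC trend removed it was 0.26 and called (adjusted p = 0.00581). IFN alone against control gave AADAT -0.17 (SE 0.11, adjusted p = 0.211), with all IFN libraries lower, a separation seen in either direction for 57.1% of genes, and 0.04 (adjusted p = 0.615) with the GC trend removed, so the sign depended on that choice. Copper and TEPA were given for different times, and their effects on AADAT were not compared.

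**Figure D3:**
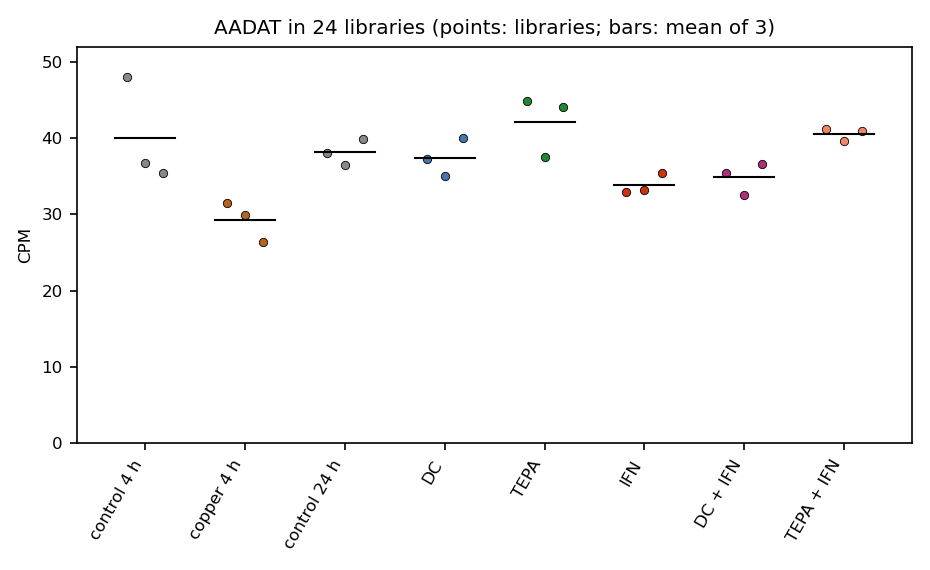
AADAT level (CPM, axis from 0) in each library, by group, with bars for the mean of 3. The copper libraries (26.4 to 31.5 CPM) lie below the 4 h control (35.4 to 48.0 CPM), and the TEPA and IFN libraries (39.6 to 41.3 CPM) above those of IFN alone (32.9 to 35.4 CPM).

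The 3 tested genes most like AADAT over the 24 libraries were FDXACB1, FUT11 and KBTBD6 (r = 0.907, 0.901 and 0.894). All 4 share the depth and GC content of these libraries. Within groups the SD of log2 AADAT was 0.123, the narrowest of the 5 tested members, and 0.0689 with the GC trend removed.

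KMO (chromosome 1, 241532134 to 241595642, plus strand), the hydroxylase, had 98 counts in the 9 libraries with IFN and 177 in the other 15. Its level ran from 0.132 to 0.639 CPM and overlapped in all 9 comparisons between 2 groups. The log2 fold change of KMO was 0.11 with IFN (SE 0.45, 95% interval -0.84 to 1.05) and -0.59 with copper (SE 0.49, -1.62 to 0.44). Changes of KMO inside these intervals were not detectable at this depth. KMO overlaps OPN3 on the opposite strand, with 40637 counts, and since the strand setting of the counting is not given in the sources used here, some KMO counts may belong to OPN3.

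KYNU (chromosome 2, 142877498 to 143055832, plus strand), the kynureninase, had 5 counts in 4 libraries. They were 3 with TEPA, 1 in the 24 h control and 1 with TEPA and IFN. HAAO (chromosome 2, 42767089 to 42792593, minus strand), the dioxygenase that makes the precursor of quinolinic acid, had 1 count in all, with TEPA. In the 9 libraries with IFN, KYNU therefore held 1 count and HAAO 0, which allows HAAO a level of up to 0.0114 CPM by counting error, beside 35862 counts of IDO1.

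QPRT (chromosome 16, 29679008 to 29698699, plus strand), which takes quinolinic acid to NAD, stood at 11.3, 15.8 and 12.0 CPM in the 24 h control and at 21.6, 21.96 and 16.0 CPM with IFN. These libraries do not overlap, which again holds for 57.1% of genes. The log2 fold change of QPRT was 0.61 (SE 0.36, 95% interval -0.14 to 1.35) and was not called (adjusted p = 0.197). With the GC trend removed the difference shrank to 0.10 (adjusted p = 0.609). With DC and IFN against DC QPRT gave 0.28 (SE 0.36) and with TEPA and IFN against TEPA 0.26 (SE 0.35), with overlapping libraries.

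At 4 h QPRT was at 6.82, 17.7 and 23.7 CPM in the control and 10.8, 19.5 and 18.4 CPM with copper. The control libraries are spread over a range of 1.79 on the log2 scale, and 0.651 with the GC trend removed. The fold change of QPRT with copper was 0.01 (SE 0.36). DC and TEPA gave 0.25 and 0.31 (SE 0.36 each) at 24 h, and neither was called. Of the 5 tested members 0 had an unadjusted p under 0.05 for DC or TEPA in edgeR, and DESeq2 called 0. Within groups the SD of log2 QPRT was 0.480 and fell to 0.180 once the trend was removed, the largest fall among the 5 tested members.

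**Figure D4:**
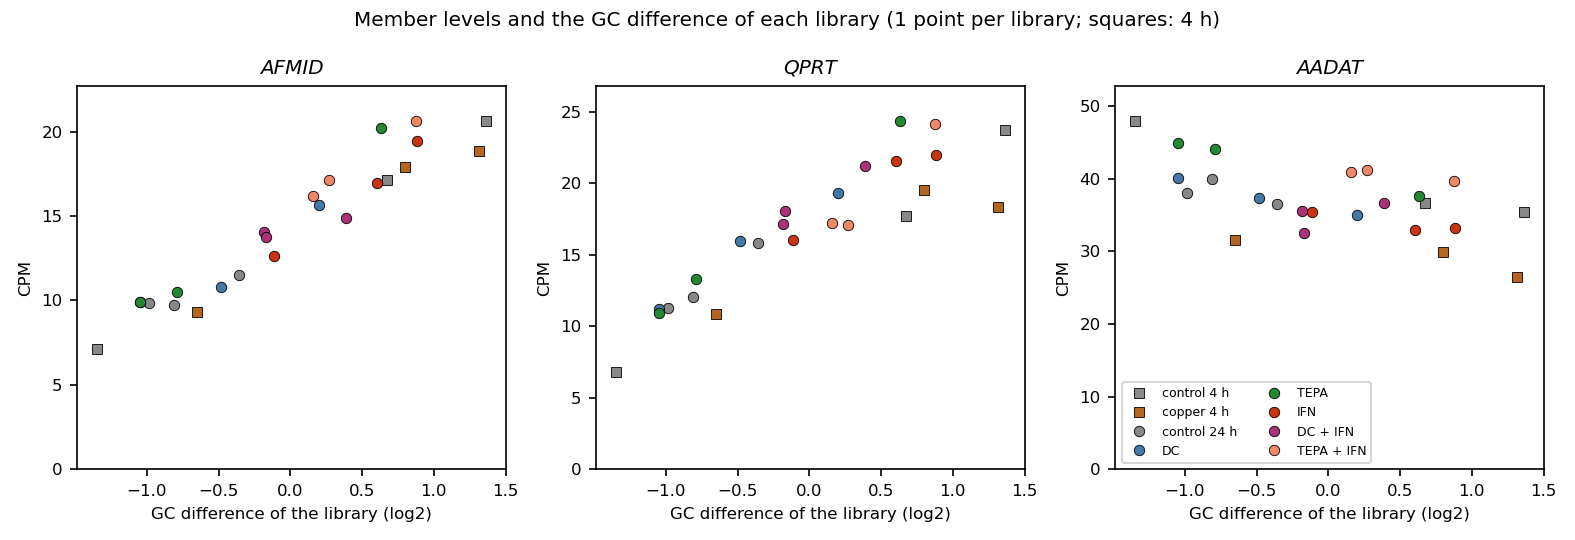
CPM of AFMID, QPRT and AADAT against the GC difference of each library (log2), with 1 point per library coloured by group and squares for 4 h. AFMID and QPRT are higher in libraries with a higher GC difference, the 24 h control libraries lie at -0.98 to -0.36 and the IFN libraries at -0.12 to 0.88.

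Levels between genes were set per kilobase of the longest annotated transcript. In the 24 h control AADAT was highest at 16.9 ± 0.774 CPM per kb, then AFMID at 5.99 ± 0.583 and QPRT at 5.57 ± 1.04, which do not differ beyond their spread, then KMO at 0.0819 ± 0.0196 and IDO1 at 0.0161 ± 0.0160. With IFN, IDO1 came first at 81.3 ± 36.5 CPM per kb, then AADAT at 15.0 ± 0.606, AFMID at 9.44 ± 1.997 and QPRT at 8.47 ± 1.42, of which the last 2 again do not differ beyond their spread. The place of AFMID rests on the length used. With the median transcript length AFMID was 17.1 and QPRT 8.93 CPM per kb in the control, and with IFN AFMID was 26.9, AADAT 16.1 and QPRT 13.6.

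The neighbouring branches of tryptophan use were read from lists chosen with earlier results of these data known. For uptake and tRNA charging, 6 of 9 genes were tested. With IFN 3 rose and 2 fell, with DC and IFN against DC 1 rose and 1 fell, and with TEPA and IFN against TEPA 3 rose and 1 fell. Of all tested genes 18.8%, 9.82% and 14.2% were called in these comparisons, in that order. WARS, the tryptophanyl-tRNA synthetase, rose from 132 ± 12.2 to 4414 ± 1010 CPM with IFN (log2 fold change 5.06, SE 0.18), and by 4.82 and 4.78 in the DC and TEPA pairs. SLC36A4, an amino acid transporter, fell by 0.81 on the log2 scale with IFN (SE 0.18), and by 0.52 with the GC trend removed. SLC16A10, an aromatic amino acid transporter, fell by 0.71 (SE 0.20, adjusted p = 0.0173), a call lost with the GC trend removed (-0.45, adjusted p = 0.0627) and without the control library numbered 1 or the IFN library numbered 1 or 2 (adjusted p up to 0.0998). The fall of SLC36A4 in the DC pair was lost without the library numbered 1 or 3 of either group (adjusted p up to 0.0988). SLC7A5 and SLC3A2, the 2 chains of the large neutral amino acid transporter, rose by 1.53 (SE 0.43) and 0.80 (SE 0.22) with IFN, and by 0.74 and 0.29 with the GC trend removed. These calls for SLC7A5 and SLC3A2 were lost when either the control libraries numbered 1 or 3 or the IFN libraries numbered 1 or 2 were left out, with adjusted p up to 0.0811 and 0.0977. The rise of SLC7A5 in the TEPA pair was lost in the 6 libraries alone and without the TEPA library numbered 1 or 3 or the TEPA and IFN library numbered 2 (adjusted p up to 0.106).

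Both chains of that transporter also rose with copper at 4 h. SLC7A5 stood at 12.4, 27.0 and 38.2 CPM in the 4 h control and 83.2, 134 and 184 CPM with copper, libraries that do not overlap, as in either direction for 12.7% of genes. The log2 fold change was 2.37 (SE 0.43, adjusted p = 0.00157) for SLC7A5 and 1.99 (SE 0.22, adjusted p = 7.95e-06) for SLC3A2. WARS rose too, from 151 ± 10.9 to 277 ± 3.33 CPM (0.87, SE 0.15). With the 6 libraries alone the calls for SLC7A5 and SLC3A2 were lost (adjusted p = 0.207 and 0.0701). In all, 3 of 6 tested genes of uptake and charging rose with copper and 0 fell, where 2.65% of all genes were called higher. The list was chosen with earlier results of these data known, and SLC7A5 and SLC3A2 form a single transporter. These counts therefore describe the list and test nothing.

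On the serotonin side, 4 of 10 genes were tested. TPH1 and TPH2, the hydroxylases that commit tryptophan to serotonin, held 94 and 21 counts over all libraries. MAOB rose and MAOA fell with IFN, and these are the monoamine oxidases that degrade serotonin and dopamine. MAOB stood at 1.63, 1.54 and 2.17 CPM in the 24 h control and 47.7, 37.7 and 29.5 CPM with IFN (log2 fold change 4.42, SE 0.29, adjusted p = 5.86e-10). MAOA stood at 53.4, 64.1 and 53.7 CPM and at 31.96, 35.0 and 42.6 CPM (-0.64, SE 0.11, adjusted p = 0.000236). The groups do not overlap for either gene, as in either direction for 57.1% of all genes. Both calls were also made with DC (4.44 and -0.45) and with TEPA (5.12 and -0.56) as the background.

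DDC, the decarboxylase that makes serotonin and dopamine, fell with IFN by 0.67 on the log2 scale (SE 0.08), from 79.6 ± 4.97 to 49.98 ± 3.53 CPM, and with copper by 0.52 (SE 0.08). DDC overlaps FIGNL1 on the same strand, and its copper call was lost with the 6 libraries alone (adjusted p = 0.301). IL4I1, an oxidase that also acts on tryptophan, rose with IFN (2.78, SE 0.76, adjusted p = 0.0145; 1.97 with the GC trend removed) at no more than 0.595 CPM. It overlaps NUP62 and ATF5, and its call was lost without the control library numbered 2 or the IFN library numbered 1 or 2 (adjusted p up to 0.06). IL4I1 was not called in the DC or TEPA pair and had no value with the 6 libraries alone.

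For NAD synthesis and use, 10 of 15 genes were tested, of which 4 rose and 1 fell with IFN, where 18.8% of all genes were called. In the DC and TEPA pairs 2 rose in each, where 9.82% and 14.2% of all genes were called. NAMPT, which salvages nicotinamide, rose from 131 ± 10.1 to 287 ± 26.1 CPM (1.13, SE 0.20), and NMNAT2, a later step, by 0.55 (SE 0.13). Both were called in all 3 IFN comparisons, NMNAT2 not in the TEPA pair fitted on its 6 libraries alone (adjusted p = 0.0575). QPRT, the step fed by kynurenine, was called in none. PARP1, which consumes NAD, rose by 0.35 (SE 0.12, adjusted p = 0.0425), a call lost with RLE factors (0.054), without the filter on low counts (0.0635) and without any 1 of the 6 libraries (adjusted p up to 0.18). NADSYN1 rose by 1.34 (SE 0.46, adjusted p = 0.0478) and NADK2 fell by 0.45 (SE 0.15, adjusted p = 0.0437), and both calls were lost without the filter on low counts and when 1 library was left out, for NADSYN1 any control library or the IFN library numbered 1 or 2, and for NADK2 the control library numbered 1 or 3 or the IFN library numbered 1 or 2 (adjusted p up to 0.199 and 0.103). NADSYN1 was also not called with RLE factors (0.0504). With the GC trend removed NADSYN1 and NADK2 were 0.71 and -0.17.

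AHR, the receptor that kynurenine and kynurenic acid can bind, had 5 counts over the 24 libraries. Of the 6 tested genes of its list, 1 was called with IFN, where 18.8% of all genes were called, so the list does not stand out. That gene, CYP1B1, a classical AHR target, rose from 7.85 ± 0.183 to 14.2 ± 1.40 CPM (0.86, SE 0.19, adjusted p = 0.00279). It rose by 0.98 and 0.72 in the DC and TEPA pairs. CYP1A1, another such target, did not pass the filter on low counts. Kynurenine side branches (5 of 8 tested) had 0 calls by edgeR in any comparison (an unadjusted p under 0.05 for 1 gene with DC and IFN against DC and for 2 between the controls), with GOT2, an aminotransferase, at 203 and DHTKD1 at 131 CPM in the 24 h control as the most abundant. The tetrahydrobiopterin genes (6 of 7 tested) had 0 calls by edgeR with IFN, copper or a chelator alone, where an unadjusted p under 0.05 was found for 2 genes with IFN, 1 with copper, 1 with DC and 2 with TEPA. GCH1, the first enzyme of that cofactor's synthesis, stood at 252 CPM in the 24 h control and at 209 CPM with IFN (-0.27, SE 0.14, adjusted p = 0.167).

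**Figure D5:**
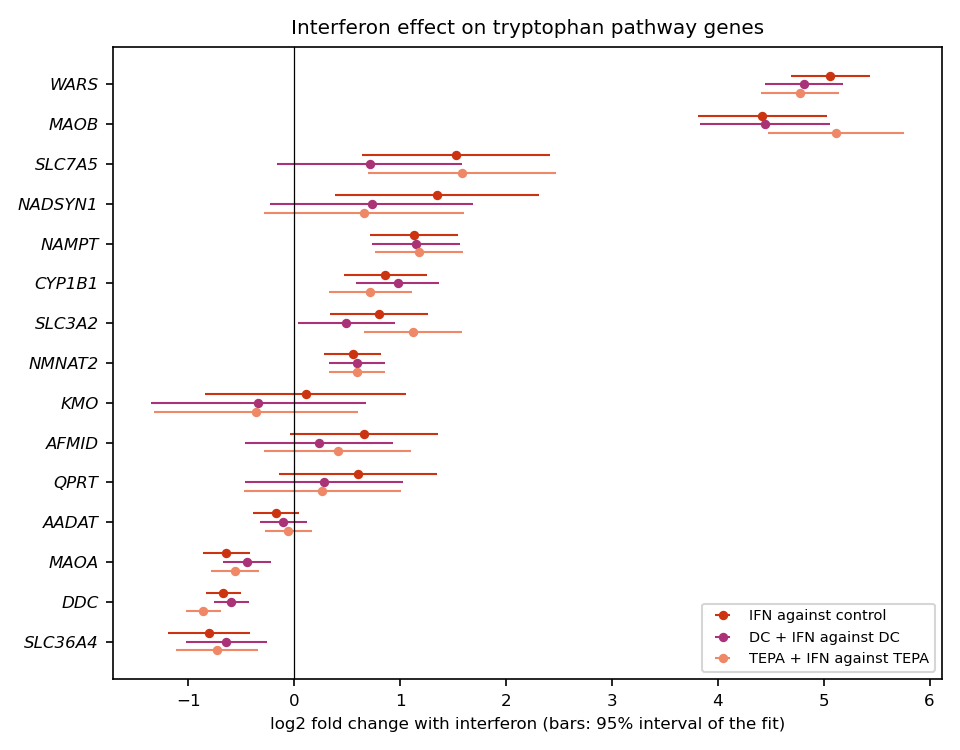
Log2 fold change with IFN (x axis) for 15 genes picked from the members and the neighbouring lists, against control, DC and TEPA. Bars are 95% intervals of the fit. IDO1 and called genes such as SLC16A10, IL4I1, PARP1 and NADK2 are not shown. WARS (5.06) and MAOB (4.42) lie far to the right in all 3 comparisons, and MAOA, DDC and SLC36A4 lie left of 0 in all 3.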

How the data were processed

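SH-SY5Y RNA was sequenced from stranded mRNA libraries, per the labels' protocols. The authors deposited raw counts, whole numbers for each of 26485 gene symbols, in 24 libraries, 3 in each of 8 groups, and STAR 2.5a, RSEM 1.2.31 and hg38 are named in the submitters' processing notes. The annotation release and strand setting are not given in the sources used here. Groups come from the treatment labels. The members and the gene lists were chosen with earlier results of these data known.

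With R 4.3.3 and edgeR 4.0.16, genes were filtered with filterByExpr (minimum count of 10, leaving 14654), scaled with TMM and fitted with a quasi-likelihood model with 1 mean per group over all 24 libraries (16 residual degrees of freedom). Calls are at a Benjamini-Hochberg adjusted p under 0.05 over all tested genes, and SE is the standard error of the fit. There were 11 comparisons: each single treatment (copper at 4 h; IFN, DC and TEPA at 24 h) with the control of its time, each combination with its chelator and with IFN, the 2 interactions, and the control groups with each other. CPM use the TMM-scaled totals. Symbols were matched to GENCODE 29 for location, length and GC content, which succeeded for 90.3%. Where a group held 0 to 3 counts the floor was 3 counts over the libraries named, and such floors and ratio intervals cover counting error only. The script was tested on simulated data.

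Alternatives were RLE factors, no filter on low counts, the libraries of the comparison alone, a replicate block (within each time, or over both times for the controls), removal of the GC trend by a smooth curve per library, both together, DESeq2 1.42.0, and leaving out each library in turn. Replicate numbers met the pairing rule where all 3 correlations of same-numbered deviations exceeded 0.1. This held in 4 of 9 comparisons: copper, DC and TEPA against control, and TEPA and IFN against TEPA. In each of these 4 a library correlated more with another number than with its own (for copper the library numbered 2, 0.499 and 0.35). The rule therefore does not show that the numbers are true pairs. No 2 libraries of a group agreed within sampling noise (chi-square per degree of freedom of at least 3.70). Genes outside the members were named by rule: up to 4 called genes of a list and comparison with the largest log2 fold change, or the 2 most abundant where none was called, with IRF1, WARS and SLC30A1 always, and TPH1, TPH2, IDO2, AHR, CYP1A1, SLC16A10 and PARP1 added after their values were seen. Some genes of the lists are not reported here.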

Additional observations from a re-analysis of the deposited data

How the results depend on the processing

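Over 773 recomputed member values, 756 kept their side of the threshold, 1 lost a call, 16 gained one, and 0 called values turned sign, while 57 uncalled ones did. Counts of called genes moved more. In the libraries of the comparison alone they were 61 for copper (0 members), 1 for DC, 0 for TEPA, 6703 for IFN (3 members), 1186 for TEPA and IFN against TEPA, 1 and 121 for DC and IFN and for TEPA and IFN against IFN, and 1 for the 2 controls. Without the filter TEPA gave 86 and TEPA and IFN against IFN 183. DESeq2 gave 374 and 583 there, 6 for DC and IFN against IFN, 2 for the DC interaction and 2510 for the controls. With the replicate block the counts were, in the order of the comparisons, 2291 for copper, 4 for DC, 857 for TEPA, 8210 for IFN (4 members), 3133 for DC and IFN against DC, 5771 for TEPA and IFN against TEPA (2 members), 6 and 1060 (0 and 1 members) against IFN, 5 for the TEPA interaction and 2254 for the controls. With the GC trend removed they were 3061, 7, 1345 (1 member), 4779, 3363, 4277, 10 and 1944 (1 member), 6 and 3909 (1 member). With the replicate block and the GC trend removed they were 3945, 9, 2155 (1 member), 6651 (2 members), 4297, 5723, 21 and 2789 (2 members), 23 and 4403 (1 member). The cause of these moves was not tested. Leaving out 1 library at a time gave 660 to 1129 for copper, 2 for DC, 61 to 127 for TEPA, 1707 to 3636 for IFN, 1087 to 1448 and 1523 to 3456 for the combinations against DC and TEPA, 2 to 3 and 124 to 251 against IFN, 0 for both interactions and 555 to 7375 for the controls, with 0 to 1 members called for the controls.

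In the IFN comparison, whose numbers did not pair the libraries by the rule, the replicate block called AFMID (adjusted p = 0.00494, and 0.00956 with the GC trend removed too), QPRT (0.0217) and AADAT (0.0313) as well as IDO1, and the libraries alone called AFMID (0.014) and QPRT (0.0206). With TEPA and IFN against IFN the block called AADAT (0.0196). Between the controls the GC correction called AADAT lower at 24 h (-0.24, adjusted p = 0.00604). Limits are set by depth for KMO, TDO2, KYNU and HAAO.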
